A study of Homo sapiens with 15 samples.

Results

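MHCC-97H is an established human hepatocellular carcinoma cell line, and the series sequenced RNA from the line in the same 3D model on 2 occasions. The 6 libraries compared here, of 15 in the series, were taken by their labels: 3 replicates of the 3D model from the first experiment (called first-round 3D below) and 3 replicates labelled as the treatment control of the later heat experiment (called controls). All 6 came from untreated MHCC-97H cells in the 3D model. The other 9 libraries are 3 each from a 2D model, an animal model and heated cells in the 3D model, and of these only the 2D libraries enter below. The series design calls the heat experiment an additional round of sequencing. Sequencing round and group are therefore the same split, and an effect of the round cannot be told apart from an effect of the culture, its age or its handling. The labels give no culture time, cell density, matrix or date for either round, and they call the replicates biological without saying that each is a separate culture. The p-values below measure only the spread between these libraries.

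As background, a tumor cell line grown in 3D meets gradients of oxygen, nutrients and growth factors that flat cultures lack. Cells deep in such a culture often divide less, and they switch on genes of the hypoxia-inducible factors, which drive glucose uptake, glycolysis and pH control. Epithelial cancer cells in 3D can also secrete more and express more of the genes of a mucosal surface. These programs move with the age and size of a 3D culture, so repeats of one model are a measure of how reproducible its transcriptome is.

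Total counts were 16632141 to 18634295 in the first-round 3D libraries and 16789095 to 16963026 in the controls, so depth was similar in all 6. The controls were nearly alike, with Pearson correlations of log2 CPM (read counts scaled by library size) of 0.995 to 0.996 across 12025 genes. First-round replicate 3 was close to the controls, at 0.964 to 0.970. Replicates 1 and 2 correlated at 0.970 with each other and at 0.885 and 0.808 with replicate 3, their fellow replicate. Against the controls the values of these 2 libraries were 0.794 to 0.888. These values are across genes, which are not independent, and they describe the libraries only. In replicates 1 and 2 the departure from the controls followed transcript composition. Its rank correlation with transcript GC content was 0.720 and 0.799, against 0.0722 in replicate 3 and -0.295 to 0.415 in the controls. With transcript length it was -0.513 and -0.446 in replicates 1 and 2 and -0.233 in replicate 3. Mitochondrially encoded genes took 4.57%, 2.57% and 11.3% of the counts of first-round replicates 1, 2 and 3, and 7.99% to 9.59% in the controls, and the part of this share in the results was not tested. Results are therefore given for all 3 first-round libraries, for replicate 3 alone and for replicates 1 and 2, and with GC content and length taken into account.

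**Figure D1:**
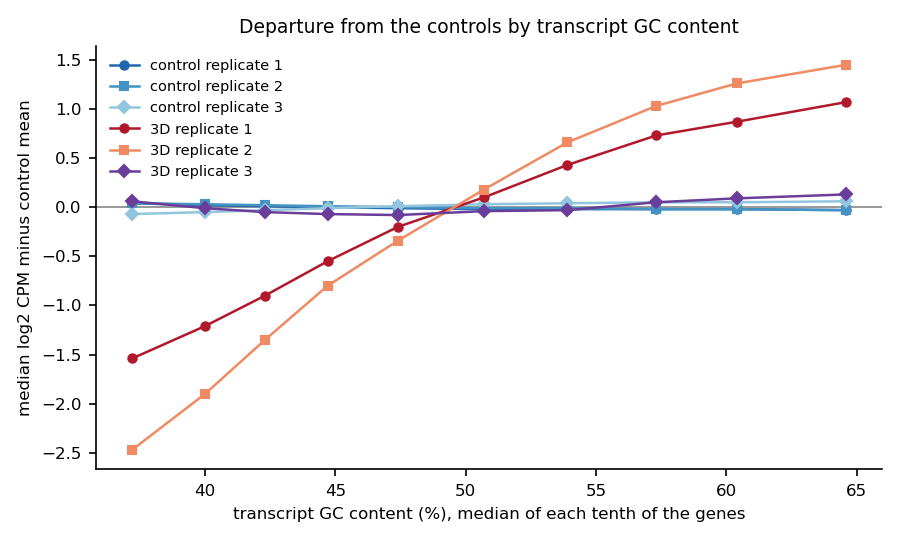
Median log2 CPM of each library minus the control mean (y) for 10 equal groups of genes ordered by transcript GC content (x, %), with 1 line per library. In the group of lowest GC content the medians of first-round replicates 1 and 2 were -1.54 and -2.47, in the group of highest GC content 1.07 and 1.45, while replicate 3 stayed between -0.08 and 0.13.

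The 3 first-round libraries lay entirely above the 3 controls for 2657 of 12523 genes tested (21.2%) and entirely below them for 2814 (22.5%). For another 1673 genes replicates 1 and 2 were above the controls and replicate 3 below, and for 1887 the reverse was true. In edgeR's quasi-likelihood fit of the 6 libraries no gene had a Benjamini-Hochberg adjusted p under 0.05, the threshold for a call throughout (0% of genes tested), and the smallest adjusted p was 0.113. At an unadjusted p below 0.05 there were 2587 higher and 1254 lower genes, and DESeq2 called 1887 higher and 659 lower. Without first-round replicate 3 the edgeR fit called 4656 higher and 4862 lower genes. The log2 fold changes below, first-round 3D over controls, come from the 6-library fit with their standard errors (SE) unless a split is named. Their median over all genes tested was -0.01.

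The comparison was then made apart for replicate 3 and for replicates 1 and 2, with the 2D libraries added to estimate the spread. Replicate 3 alone was called higher than the controls for 3337 of 12989 genes (25.7%) and lower for 3446 (26.5%). This fit assumes that a single library varies like the other groups. With 13 libraries estimating the spread it called no gene, with 1092 at an unadjusted p below 0.05. With 12 libraries, that is without heat replicate 1 as well, it called 631 higher and 943 lower. Replicates 1 and 2 were called higher for 5027 of 12738 genes (39.5%) and lower for 5259 (41.3%). Genes called in the same direction in both fits, which is the meaning of "called in both" below, numbered 1757 higher (13.8% of 12716 tested in both) and 1794 lower (14.1%). Of these, 194 were at least 2-fold higher in both and 141 at least 2-fold lower. Both fits share the 3 controls, so being called in both is a description of the 3 first-round libraries and not independent support. The shares over all genes given here are the background for the list counts below. With each library's trend in GC content and length removed, the 6-library fit called 115 genes higher (0.927% of 12410) and 140 lower (1.13%), of which 94 and 104 were also called in both.

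The genes that stood highest above the controls in replicate 3 as well as in replicates 1 and 2 were led by genes of mucosal epithelium. PDZK1IP1, a small membrane protein of epithelia, was at 35.4, 38.9 and 18.1 CPM in first-round replicates 1, 2 and 3 and at 1.82, 1.97 and 1.45 CPM in the controls (log2 fold change 4.13, SE 0.39, adjusted p 0.113). LCN2, the iron-scavenging secreted protein lipocalin 2, was at 52.4, 79.8 and 13.7 CPM against 2.18, 1.92 and 1.71 CPM (log2 fold change 4.64, SE 0.69, adjusted p 0.113). Every first-round library was far above every control for both genes, and replicate 3 was the lowest of the 3. In bulk RNA, fewer cells that express a gene and less of its RNA per cell cannot be told apart.

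DUOX2, a dual oxidase that makes hydrogen peroxide at epithelial surfaces, was at 37.0, 58.9 and 60.2 CPM against 10.4, 7.73 and 7.55 CPM (log2 fold change 2.60, SE 0.30, adjusted p 0.113). Its maturation factor DUOXA2 was at 14.7, 35.6 and 17.4 CPM against 2.03, 2.02 and 1.02 CPM (log2 fold change 3.73, SE 0.50, adjusted p 0.113). For DUOX2, replicate 3 was the highest of the 6 libraries. EFNA1, the membrane-bound ligand ephrin A1, was at 674, 602 and 573 CPM against 145, 110 and 110 CPM, so the first-round values hardly differed from one another (5.05-fold, adjusted p 0.113). The other genes of this set were TM4SF20, a tetraspanin-like membrane protein (log2 fold change 2.34), HABP2, a secreted serine protease (2.76), and SOX18, a transcription factor (2.84). SOX18 was uneven, at 44.2, 206 and 53.4 CPM against 13.1 to 14.7 CPM. With GC content and length taken into account, 6 of these 8 genes were called in the 6-library fit, with log2 fold changes from 2.38 for DUOX2 to 3.34 for LCN2. EFNA1 and SOX18 were not, at adjusted p 0.0664 and 0.0761.

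Among the genes lowest in all 3 first-round libraries, FKBP5, a co-chaperone of the glucocorticoid receptor and one of its targets, was at 18.9, 17.3 and 11.6 CPM against 85.8, 96.4 and 101 CPM (log2 fold change -2.57, SE 0.26, adjusted p 0.113). MKI67, which encodes the proliferation antigen Ki-67, was at 97.9, 83.1 and 75.1 CPM against 267, 298 and 275 CPM (log2 fold change -1.71, SE 0.21, adjusted p 0.113). For both, replicate 3 was the lowest of the 6 libraries. The others were MAP2, a microtubule-associated protein (log2 fold change -1.91), PRR11 (-1.47) and MELK (-1.44), both expressed in dividing cells, ATAD2, a chromatin regulator of dividing cells (-2.24), NT5DC3 (-1.80) and HIPK2, a nuclear kinase (-1.43). MELK was even among first-round libraries, at 29.3, 25.9 and 28.3 CPM against 70.9 to 78.5 CPM. ATAD2 was not, at 24.8, 8.80 and 48.3 CPM against 122 to 141 CPM. With GC content and length taken into account MKI67, MAP2, PRR11 and ATAD2 were called lower. FKBP5 kept a log2 fold change of -1.46 there, at adjusted p 0.116.

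**Figure D2:**
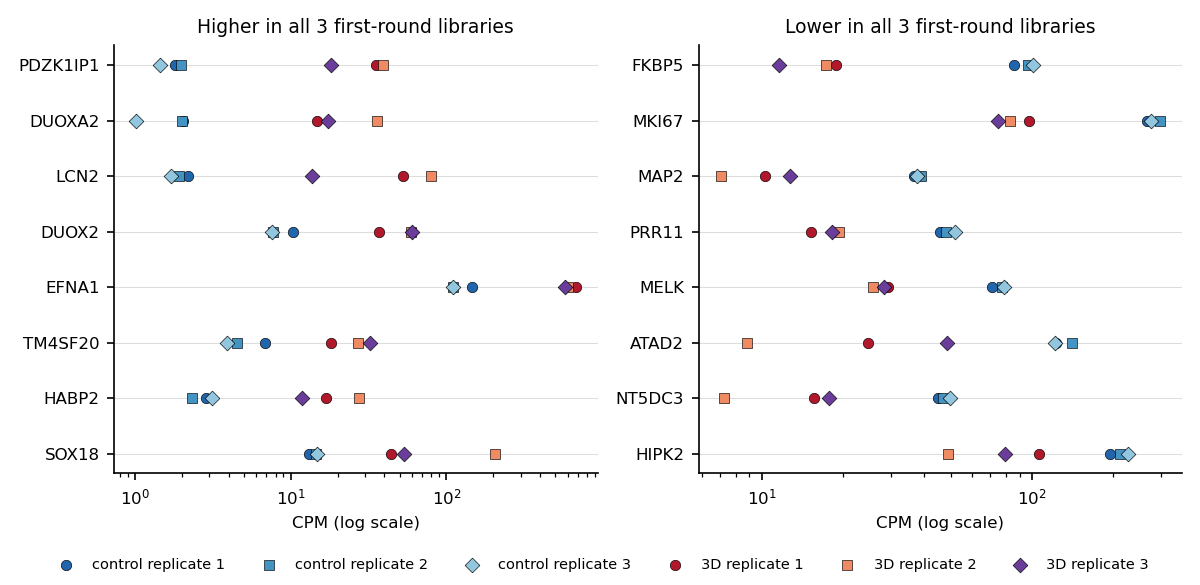
Level of 16 genes in each library (x, CPM on a log scale); red, orange and purple points are first-round 3D replicates, blue points controls. No first-round point overlaps the controls for any of the 16, and SOX18 in replicate 2 (206 CPM) and ATAD2 in replicate 2 (8.80 CPM) lie apart from their fellow replicates.

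Levels in the 2D libraries were set beside these 16 genes, with one scaling over 9 libraries. The control mean lay between the first-round 3D mean and the 2D mean for 14 of the 16. The 16 were chosen for their distance between first-round 3D and the controls, and the share over all genes was not counted. Among the 14, HIPK2 was at 221 ± 15.1 CPM in the controls and 223 ± 5.64 CPM in 2D, so these hardly differed (mean ± SD). SOX18 was at 14.8 ± 0.875 and 10.4 ± 3.46 CPM. MKI67 was at 90.6 ± 14.3 CPM in first-round 3D, 293 ± 17.7 CPM in the controls and 352 ± 13.4 CPM in 2D (mean ± SD, n = 3 each). DUOX2 was at 54.9 ± 12.8, 8.97 ± 1.70 and 0.557 ± 0.0903 CPM in the same order. EFNA1 was at 654 ± 69.8, 128 ± 21.5 and 40.9 ± 6.31 CPM. The exceptions were HABP2, at 19.9, 2.90 and 5.32 CPM, and NT5DC3, at 14.4, 49.5 and 30.4 CPM. The 2D libraries were made in the first experiment, so this order also sets libraries of both rounds side by side.

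The wider list of mucosal secretory and dual oxidase genes had 14 tested members, of which 9 were called higher in both and none lower, and 11 lay above every control. Their median log2 fold change was 1.65, and it was 1.08 in replicate 3, 2.01 in replicates 1 and 2 and 0.92 with GC content and length taken into account. TFF1, a trefoil peptide of gastric mucus, was at 423, 149 and 122 CPM against 42.2, 39.5 and 44.8 CPM. TFF3, its intestinal relative, was at 30.0, 16.4 and 11.3 CPM against 5.66 to 7.44 CPM. REG4, a secreted lectin of the gut, was at 26.5, 34.6 and 5.02 CPM against 2.39 to 2.84 CPM. All 3 genes were above every control, with replicate 3 the lowest of the first-round libraries. MUC1 and AGR2 did not stand apart in this way. The mucin MUC1 was at 226, 118 and 229 CPM against 149 to 178 CPM and AGR2, which folds mucins, at 787, 490 and 808 CPM against 648 to 684 CPM, so in both genes replicate 2 was below the controls and the other replicates were above. LCN2, DUOX2, DUOXA2 and PDZK1IP1 are also members of this list, which was drawn up with earlier results of these data known.

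Genes of cell division were lower in first-round 3D. Of 19 tested genes of G2 and M phase, 14 were called lower in both and none higher, and the same number lay below every control. Their median log2 fold change was -1.17, with -0.91 in replicate 3 and -1.60 in replicates 1 and 2. With GC content and length taken into account the median was -0.73 and 6 members were called lower. CCNA2, cyclin A2, was at 22.8, 17.1 and 28.8 CPM against 61.2, 68.1 and 65.6 CPM (log2 fold change -1.50, SE 0.26, adjusted p 0.113). BUB1B, a kinase-like protein of the spindle checkpoint, was at 17.5, 14.8 and 19.1 CPM against 37.9, 44.3 and 42.8 CPM (log2 fold change -1.28, SE 0.22, adjusted p 0.113). TOP2A, the topoisomerase that untangles replicated chromosomes, was at 57.4, 27.1 and 78.2 CPM against 166 to 179 CPM. In each of these genes the groups did not overlap.

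The list also had members in which first-round replicates disagreed. PLK1, a mitotic kinase, was at 257, 286 and 81.8 CPM against 146, 158 and 155 CPM, so replicates 1 and 2 were above the controls and replicate 3 was below. CDC20, the activator of the anaphase-promoting complex, behaved alike at 122, 152 and 36.3 CPM against 77.6 to 85.6 CPM. CENPE, a kinetochore motor, went the other way, at 1.40, 0.338 and 12.2 CPM against 5.60 to 6.71 CPM.

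Promoters of the G2 and M phase genes often carry a CCAAT box, bound by the factor NF-Y, and a cell cycle homology region, TTTGAA, through which the DREAM and MuvB complexes act. The promoters of 3 of the genes with values above are shown to let these letters be seen. They are the RefSeq sequences of build GRCh38.p14, 100 bases each, from the 250 bases before the gene start, with matches to CCAAT or TTTGAA on either strand in capitals.
MKI67, chr10:128126424-128126523, minus strand: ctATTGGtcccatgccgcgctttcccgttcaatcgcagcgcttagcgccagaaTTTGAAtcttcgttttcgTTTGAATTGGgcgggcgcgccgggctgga
CCNA2, chr4:121823915-121824014, minus strand: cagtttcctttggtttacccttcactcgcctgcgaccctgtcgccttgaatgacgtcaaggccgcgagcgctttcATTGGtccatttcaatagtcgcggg
BUB1B, chr15:40160969-40161068, plus strand: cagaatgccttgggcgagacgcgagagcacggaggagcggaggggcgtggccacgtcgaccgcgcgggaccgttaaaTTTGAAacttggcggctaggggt
MKI67 has 4 matches in this stretch, of which a TTTGAA and a reversed CCAAT share a base, and CCNA2 and BUB1B have 1 each. A promoter was found for 17 of the 19 tested members. In the 250 bases before the start, CCAAT or its reverse was present in 15 of the 17 (88.2%) and TTTGAA or its reverse in 9 (52.9%). Among all 27305 promoters of the table the shares were 33% and 13.6%. Of the 12 members with a promoter that were called lower in both, 11 held CCAAT and 6 TTTGAA. A match is a run of letters and does not show binding.

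The DNA replication list had 22 tested members, and 13 of them were called lower in both and none higher. Replicate 3 was called lower than the controls for all 22, with a median log2 fold change of -1.12. In replicates 1 and 2, 13 were called lower and 4 higher, with a median of -0.48. RRM1, the large subunit of ribonucleotide reductase, was at 55.1, 60.6 and 57.1 CPM against 118, 119 and 118 CPM (log2 fold change -1.04, SE 0.18, adjusted p 0.113). GINS1, part of the replicative helicase, was at 18.6 to 21.0 CPM, with replicate 3 the lowest, against 45.0, 47.4 and 52.1 CPM (log2 fold change -1.28, SE 0.20, adjusted p 0.113). The 3 first-round values of these genes were close together and far below the controls. With GC content and length taken into account RRM1 was at -0.52 (edgeR adjusted p 0.196) and GINS1 at -0.53 (0.323). The list's median was then -0.64, with 4 members called lower.

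The subunits of the MCM helicase were split. MCM6 was at 33.4, 35.1 and 26.6 CPM against 55.9 to 59.0 CPM and MCM4 at 137, 180 and 96.3 CPM against 226 to 248 CPM, both below every control in all 3 libraries. MCM5 was at 159, 268 and 53.5 CPM against 104, 107 and 112 CPM and MCM7 at 524, 769 and 202 CPM against 379 to 425 CPM, above the controls in replicates 1 and 2 and below them in replicate 3. A promoter was found for 20 members, and TTTCCCGC, a form of the E2F site, was present in 7 of them in either direction (35%), against 1.42% of all promoters. TTTGGCGC, another form, was present in 3 (15% against 0.553%), CCAAT in 14 (70% against 33%) and TTTGAA in 1 (5%).

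Cell cycle inhibitors and G1 cyclins were mixed: of 11 tested, 2 were called higher in both and 2 lower. The list's median log2 fold change was -0.02, and its sign turned with median-ratio scaling (0.06). It was -0.37 with GC content and length taken into account. CDKN1C, the inhibitor p57, was at 52.4, 36.1 and 29.2 CPM against 18.6 to 21.1 CPM. Its log2 fold change of 0.99 went to -0.00 with GC content and length taken into account (adjusted p 0.996). CDKN1A, the inhibitor p21, was at 395, 455 and 162 CPM against 145, 147 and 146 CPM, so its difference in replicate 3 was small. CCNE2, cyclin E2, was at 0.489, 0.609 and 3.72 CPM against 8.95, 12.1 and 10.4 CPM. CCND1, cyclin D1, was at 289, 238 and 299 CPM against 354 to 369 CPM. Each of these genes was outside the range of the controls in all 3 libraries.

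Hypoxia response genes were higher in replicate 3, and a part of them in all 3 libraries. Of 25 tested, 10 were called higher in both and 1 lower. Replicate 3 was called higher for 23 of the 25, with a median log2 fold change of 0.83, while replicates 1 and 2 were called higher for 10 and lower for 8, with a median of 0.16. The shares over all genes in replicates 1 and 2 were 39.5% higher and 41.3% lower. Their counts for this list are therefore not particular to it. ANGPTL4, a secreted inhibitor of lipoprotein lipase, was at 604, 565 and 799 CPM against 226, 191 and 200 CPM (log2 fold change 1.67, SE 0.23, adjusted p 0.113). CA9, a carbonic anhydrase that exports acid, was at 431, 258 and 354 CPM against 170, 136 and 131 CPM (log2 fold change 1.26, SE 0.26, adjusted p 0.113). PFKFB4, which makes an activator of glycolysis, was at 185, 144 and 186 CPM against 77.6, 63.3 and 71.2 CPM. Replicate 3 was the highest library for ANGPTL4, lay between its fellow replicates for CA9 and was level with replicate 1 for PFKFB4, and no first-round library overlapped the controls. With GC content and length taken into account none of these 3 genes was called. Their log2 fold changes, in the order named, were then 0.87, 0.38 and 0.90 (edgeR adjusted p 0.315, 0.625 and 0.154).

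The promoters of ANGPTL4 and CA9 are shown because hypoxia-inducible factors bind a short core, ACGTG or GCGTG, that can be read in them. Both are RefSeq sequences of build GRCh38.p14, 100 bases from within the 250 before the start, with matches to either core on either strand in capitals.
ANGPTL4, chr19:8363905-8364004, plus strand: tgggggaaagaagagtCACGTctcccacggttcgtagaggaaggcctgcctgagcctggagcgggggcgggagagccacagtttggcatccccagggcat
CA9, chr9:35673828-35673927, plus strand: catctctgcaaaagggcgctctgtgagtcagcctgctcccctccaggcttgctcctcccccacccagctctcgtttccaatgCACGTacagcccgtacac
Each stretch holds 1 match, a reversed ACGTG. Of 22 list members with a promoter, 11 (50%) held ACGTG in either direction in those 250 bases and 11 (50%) held GCGTG, against 18.7% and 31.9% of all promoters. Of the 9 with a promoter that were called higher in both, 4 held ACGTG and 3 held GCGTG.

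VEGFA, the vascular growth factor, was at 176, 140 and 694 CPM against 352, 292 and 290 CPM, below the controls in replicates 1 and 2 and above them in replicate 3. ERO1A, an oxidase of protein folding, was at 232, 70.2 and 763 CPM against 295 to 348 CPM and so had the same split. P4HA1, a collagen prolyl hydroxylase, did as well, at 110, 58.5 and 294 CPM against 164 to 202 CPM. NDRG1, a stress-responsive protein, was above the controls in all 3 libraries, at 5238, 5037 and 7079 CPM against 3594 to 4118 CPM. EGLN1, an oxygen sensor that marks hypoxia-inducible factors for destruction, was below the controls in all 3, at 73.8, 33.6 and 146 CPM against 166 to 174 CPM. With GC content and length taken into account the list's median was 0.26, against -0.07 over all genes, and 1 member was called.

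Of 17 tested glycolysis genes 9 were called higher in both and none lower, and 12 lay above every control. Their median log2 fold change was 0.93, with 0.33 in replicate 3, 1.23 in replicates 1 and 2 and 0.29 with GC content and length taken into account. ALDOC, an aldolase, was at 169, 162 and 154 CPM against 71.7, 68.0 and 70.6 CPM (log2 fold change 1.21, SE 0.18, adjusted p 0.113). SLC16A3, the lactate exporter MCT4, was at 776, 936 and 570 CPM against 372, 351 and 371 CPM. GAPDH was at 11354, 10143 and 5709 CPM against 4465 to 4692 CPM. For ALDOC the first-round libraries were nearly equal, and for SLC16A3 and GAPDH replicate 3 lay between its fellow replicates and the controls. ENO2, the neuronal enolase, had the opposite order, at 464, 377 and 809 CPM against 317 to 368 CPM. HK1, which starts glycolysis, was at 219, 300 and 127 CPM against 167 to 185 CPM and LDHA, which makes lactate, at 2744, 1707 and 2146 CPM against 1682 to 1722 CPM. Both overlapped the controls or straddled them.

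**Figure D3:**
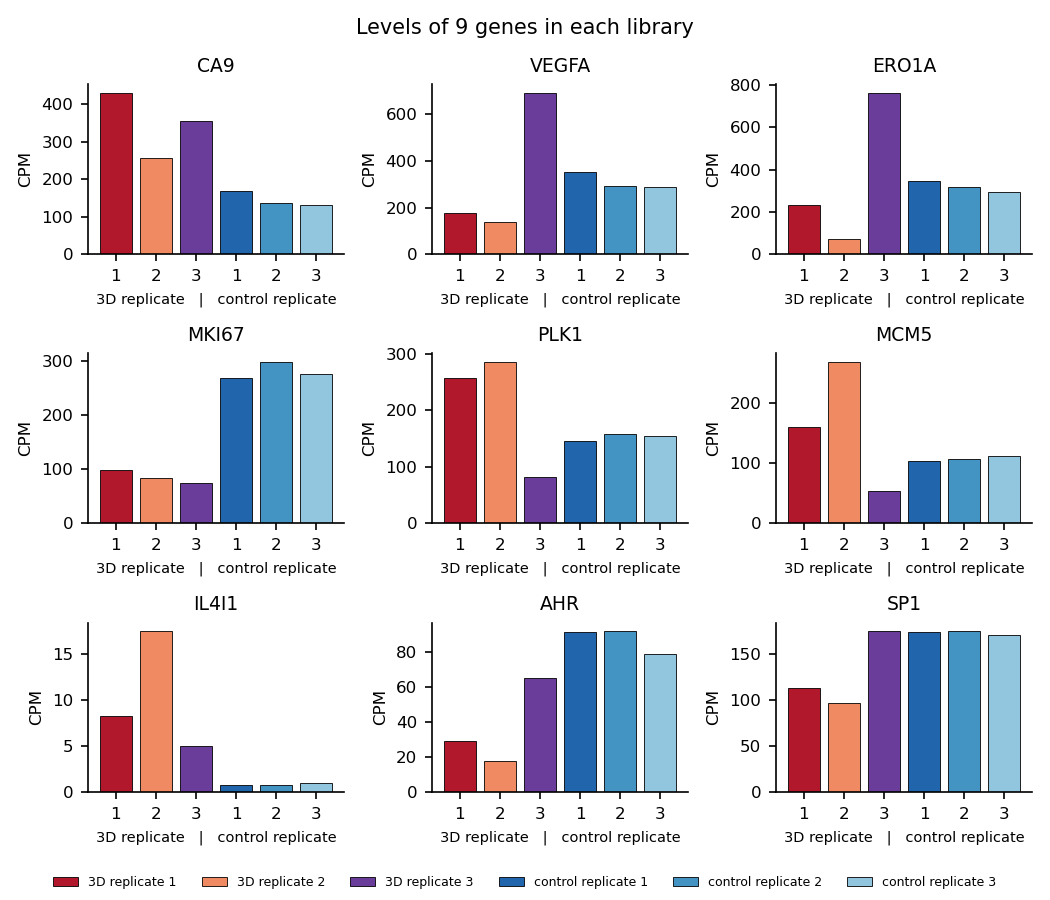
Level of 9 genes in each library (y, CPM from 0; bars are single libraries). CA9, MKI67, IL4I1 and AHR stand on one side of the controls in all 3 first-round libraries, VEGFA, ERO1A, PLK1 and MCM5 on opposite sides in replicate 3 and in replicates 1 and 2, and SP1 in replicate 3 (175 CPM) is level with the controls (170 to 175 CPM).

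Cytosolic ribosomal protein genes were higher nearly without exception. Of 28 tested, 26 were called higher in both and none lower, and 26 lay above every control. The median log2 fold change was 1.48, with 0.61 in replicate 3, 1.83 in replicates 1 and 2 and 0.55 with GC content and length taken into account, where 1 member was called. RPS27 was at 1017, 888 and 629 CPM against 300, 292 and 309 CPM (log2 fold change 1.49, SE 0.25, adjusted p 0.113). RPL27 was at 766, 659 and 315 CPM against 192, 188 and 184 CPM (log2 fold change 1.63, SE 0.35, adjusted p 0.113). Replicate 3 was between the other first-round libraries and the controls for both. These genes have many processed copies in the genome, so reads that map to several places could affect the counts. Their transcripts are also short, with a median of 1184 bases against 3368 over all genes tested.

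Among 20 translation factors 5 were called higher in both and 6 lower. The elongation factor subunit EEF1G was at 1798, 1986 and 762 CPM against 537 to 560 CPM, and the initiation factor EIF3A was at 87.9, 77.9 and 126 CPM against 193 to 221 CPM. The median of this list was 0.08, and it changed sign with upper-quartile scaling (-0.05).

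The nuclear genes of the respiratory chain and of the mitochondrial ribosome were high chiefly in replicates 1 and 2. Of 22 tested respiratory chain subunits 21 were called higher in replicates 1 and 2 (median log2 fold change 1.71) and 12 in replicate 3 (median 0.19), and 12 were called higher in both and 1 lower. COX5B, a subunit of cytochrome oxidase, was at 361, 346 and 105 CPM against 70.1 to 75.4 CPM. NDUFA4 was at 278, 219 and 154 CPM against 99.2 to 100 CPM. Of 18 mitochondrial ribosomal proteins 14 were called higher in replicates 1 and 2 (median 1.49), while in replicate 3 the median was -0.13 with 3 called higher and 5 lower. The 13 genes encoded by mitochondrial DNA had medians of -0.91 in replicates 1 and 2, with 11 called lower, and 0.25 in replicate 3, with 5 called higher and 1 lower. Only MT-ND4L was called in the same direction in both, at 1181, 700 and 1746 CPM against 1892 to 1994 CPM. With GC content and length taken into account the medians were 0.51, 0.01 and -0.67 for the 3 lists.

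Genes of the NF-kB and inflammatory list were higher. Of 18 tested, 10 were called higher in both and none lower, and 12 lay above every control. Their median log2 fold change was 1.03, with 0.71 in replicate 3, 1.15 in replicates 1 and 2 and 0.71 with GC content and length taken into account. No member was called with GC content and length taken into account. ICAM1, the leukocyte adhesion molecule, was at 130, 285 and 162 CPM against 66.3, 68.3 and 65.8 CPM (log2 fold change 1.53, SE 0.33, adjusted p 0.113). CCL20, a chemokine of mucosal surfaces, was at 15.4, 20.5 and 18.8 CPM against 6.14, 9.70 and 9.48 CPM (log2 fold change 1.11, SE 0.28, adjusted p 0.113). IL1B, interleukin-1 beta, was at 3.21, 6.70 and 3.27 CPM against 1.25, 0.830 and 1.18 CPM. NFKBIA, the inhibitor of NF-kB and one of its targets, was at 147, 189 and 103 CPM against 71.0 to 73.2 CPM. No first-round library overlapped the controls in these 4 genes. BIRC3, an inhibitor of cell death, was at 13.9, 6.22 and 75.8 CPM against 64.0 to 73.2 CPM, and so was low in replicates 1 and 2 only. TNFAIP3, a negative regulator of the pathway, was at 22.4, 32.6 and 41.2 CPM against 29.4 to 30.7 CPM. It was below the controls in replicate 1 and above them in replicates 2 and 3.

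Antigen presentation genes followed, with 9 of 13 tested called higher in both and none lower. Their median log2 fold change was 1.08, with 0.67 in replicate 3 and 0.29 with GC content and length taken into account. TAPBP, which loads peptides onto class I molecules, was at 304, 338 and 254 CPM against 135, 134 and 133 CPM (log2 fold change 1.16, SE 0.20, adjusted p 0.113). HLA-C was at 124, 129 and 88.0 CPM against 51.5 to 57.9 CPM. Its log2 fold change, 1.08, went to 0.04 with GC content and length taken into account (edgeR adjusted p 0.930). HLA genes are close copies of one another, so their separate counts are uncertain. Of 16 interferon response genes 6 were called higher in both and none lower, with a median of 0.86, of 0.43 in replicate 3 and of 0.25 with GC content and length taken into account. IRF7, a factor that amplifies interferon production, was at 62.0, 69.7 and 46.9 CPM against 27.3, 23.0 and 27.3 CPM. ISG15, a ubiquitin-like protein, was at 120, 134 and 35.0 CPM against 23.7 to 26.5 CPM. Replicate 3 was the lowest first-round library for both.

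Of 23 cholesterol synthesis genes 10 were called higher in both and none lower. Replicate 3 was called higher for 18 and lower for 1, and replicates 1 and 2 for 13 and 7. The median log2 fold changes were 0.57 in all, 0.52 in replicate 3, 0.73 in replicates 1 and 2 and 0.24 with GC content and length taken into account. DHCR7, the last enzyme of one branch of the pathway, was at 413, 721 and 405 CPM against 182, 184 and 215 CPM. TM7SF2, a sterol reductase, was at 36.0, 89.4 and 31.6 CPM against 11.9 to 14.7 CPM. SREBF1, the sterol-regulated factor that drives fatty acid synthesis and is in that list, was at 249, 449 and 260 CPM against 155 to 164 CPM. In each, replicate 2 was the highest library, and replicates 1 and 3 were level. Other members of the cholesterol list were below the controls in replicates 1 and 2 only. HMGCS1 was at 18.3, 14.7 and 54.0 CPM against 41.7 to 56.5 CPM, inside the controls in replicate 3. IDI1 was at 27.4, 20.4 and 94.3 CPM against 61.5 to 79.2 CPM, above them in replicate 3. Of 22 lysosome genes 12 were called higher in both and 1 lower. The cathepsin CTSB was at 1014, 1051 and 717 CPM against 469 to 513 CPM. HEXA, a subunit of hexosaminidase, was at 179, 203 and 118 CPM against 78.3 to 85.9 CPM and was the member called with GC content and length taken into account (log2 fold change 1.03, adjusted p 0.0370). The lysosome median was 0.86, with 0.25 in replicate 3 and 0.18 with GC content and length taken into account.

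NRF2 targets, which defend against oxidants, went in both directions, with 4 of 20 called higher in both and 6 lower. TXNRD1, thioredoxin reductase, was at 1391, 1165 and 1347 CPM against 2705, 2927 and 2971 CPM (log2 fold change -1.14, SE 0.21, adjusted p 0.113). GCLC, the enzyme that limits glutathione synthesis, was at 39.5, 25.2 and 57.4 CPM against 91.8 to 94.6 CPM. HMOX1, heme oxygenase 1, was at 426, 604 and 210 CPM against 138 to 148 CPM. The first 2 genes were below every control and HMOX1 was above. The list's median was 0.77, and it was -0.29 in replicate 3 with 15 members called lower and 4 higher. It was 0.17 with GC content and length taken into account. The ferritin light chain FTL, a target of the same factor, was at 42406, 38331 and 12487 CPM against 9929 to 10261 CPM. TFRC, the transferrin receptor that imports iron, was at 221, 180 and 344 CPM against 413 to 471 CPM.

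Genes that answer to glucocorticoids were few, with 9 tested, 4 called lower in both and 1 higher (median log2 fold change -0.85). Besides FKBP5, KLF9 was at 0.768, 0.744 and 2.14 CPM against 3.96 to 5.19 CPM and the kinase SGK1 at 1.89, 2.50 and 1.47 CPM against 3.17 to 3.86 CPM. Both were low and below every control, and CEBPD was above, at 126, 130 and 112 CPM against 70.0 to 81.0 CPM. The log2 fold change of CEBPD, 0.70, turned to -0.18 with GC content and length taken into account (adjusted p 0.736). Of 15 genes of MAP kinase feedback 6 were called lower in both and none higher. SPRY1, a feedback inhibitor of growth factor signalling, was at 22.9, 21.0 and 26.8 CPM against 40.3, 42.3 and 42.2 CPM (log2 fold change -0.82, SE 0.21, adjusted p 0.113). DUSP6, the phosphatase of ERK, was at 189, 112 and 233 CPM against 295 to 313 CPM. The medians of this list were -0.43, -0.33 in replicate 3, -0.34 in replicates 1 and 2 and -0.48 with GC content and length taken into account.

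Of 16 YAP and TEAD targets, which respond to tension and cell spreading, 5 were called lower in both and 1 higher. The targets CCN2 and CCN1 did not stand apart from the controls (log2 fold changes 0.10 and 0.13). AXL was above every control, at 177, 117 and 165 CPM against 101 to 103 CPM. TGFB2, transforming growth factor beta 2, was at 10.1, 6.83 and 15.3 CPM against 42.4, 42.0 and 36.3 CPM (log2 fold change -1.90, SE 0.34, adjusted p 0.113). TGFB1, encoding the related ligand, was on the other side, at 1235, 1330 and 689 CPM against 385 to 415 CPM. BMP4, a ligand of the same family, was at 45.5, 46.6 and 46.5 CPM against 25.4, 24.8 and 22.0 CPM, nearly equal in the 3 first-round libraries. The YAP factor list's median was -0.35, with -0.06 in replicate 3 and -0.48 in replicates 1 and 2. That of TGF-beta signalling was -0.29, where 5 of 18 were called higher in both and 1 lower. It was 0.14 in replicate 3 and -0.62 in replicates 1 and 2, so its sign differed between them. With GC content and length taken into account the 2 medians were -0.49 and -0.16.

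Adhesion genes were mixed as well. ITGA5, the fibronectin receptor subunit, was at 951, 862 and 824 CPM against 416, 391 and 402 CPM (log2 fold change 1.12, SE 0.19, adjusted p 0.113). LAMA3, a chain of the basement membrane protein laminin 332, was at 111, 65.4 and 227 CPM against 504, 529 and 534 CPM (log2 fold change -1.96, SE 0.46, adjusted p 0.113). In all, 4 of 17 integrins and laminins were called higher in both and 2 lower. Of 16 epithelial junction genes 6 were called lower in both and 1 higher. CLDN4, a claudin of tight junctions, was at 688, 869 and 363 CPM against 243 to 271 CPM, and the tight junction scaffold TJP1 was at 66.0, 44.0 and 62.9 CPM against 101 to 112 CPM. Of 18 splicing regulators 8 were called lower in both and none higher, with medians of -0.61, -0.17 in replicate 3 and -0.14 with GC content and length taken into account.

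Heat shock chaperones, which bear on the heat experiment that the controls belong to, were lower in replicate 3 and divided in replicates 1 and 2. Of 25 tested, replicate 3 was called lower than the controls for 21 and higher for none, with a median log2 fold change of -0.42. Replicates 1 and 2 were called higher for 13 and lower for 9, with a median of 0.51. Over all genes replicates 1 and 2 were called higher for 39.5% and lower for 41.3%, so such a division is not particular to this list. In both, 9 were called lower and none higher. The 6-library median was 0.21 and turned to -0.17 with GC content and length taken into account. HSPH1, a nucleotide exchange factor of the HSP70 system, was at 27.0, 21.7 and 37.2 CPM against 63.6, 70.8 and 62.5 CPM (log2 fold change -1.20, SE 0.26, adjusted p 0.113). It was -0.19 with GC content and length taken into account (adjusted p 0.634). HSPD1, the mitochondrial chaperonin, was at 205, 182 and 220 CPM against 349, 352 and 358 CPM. HSP90AA1, the inducible form of HSP90, was at 316, 165 and 538 CPM against 786 to 816 CPM. These 3 genes were below every control in all 3 libraries.

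HSPA8, the constitutive HSP70, was at 1220, 1667 and 679 CPM against 968 to 1083 CPM, and HSP90AB1, the constitutive HSP90, at 1037, 1392 and 584 CPM against 749 to 804 CPM. Both were above the controls in replicates 1 and 2 and below them in replicate 3. HSPA1A, the inducible HSP70, was at 490, 989 and 296 CPM against 314 to 338 CPM. It has a near-identical copy in HSPA1B, so its own count is uncertain. The factor HSF1 was at 350, 440 and 150 CPM against 151 to 168 CPM, so replicate 3 was at the lower edge of the controls.

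**Figure D4:**
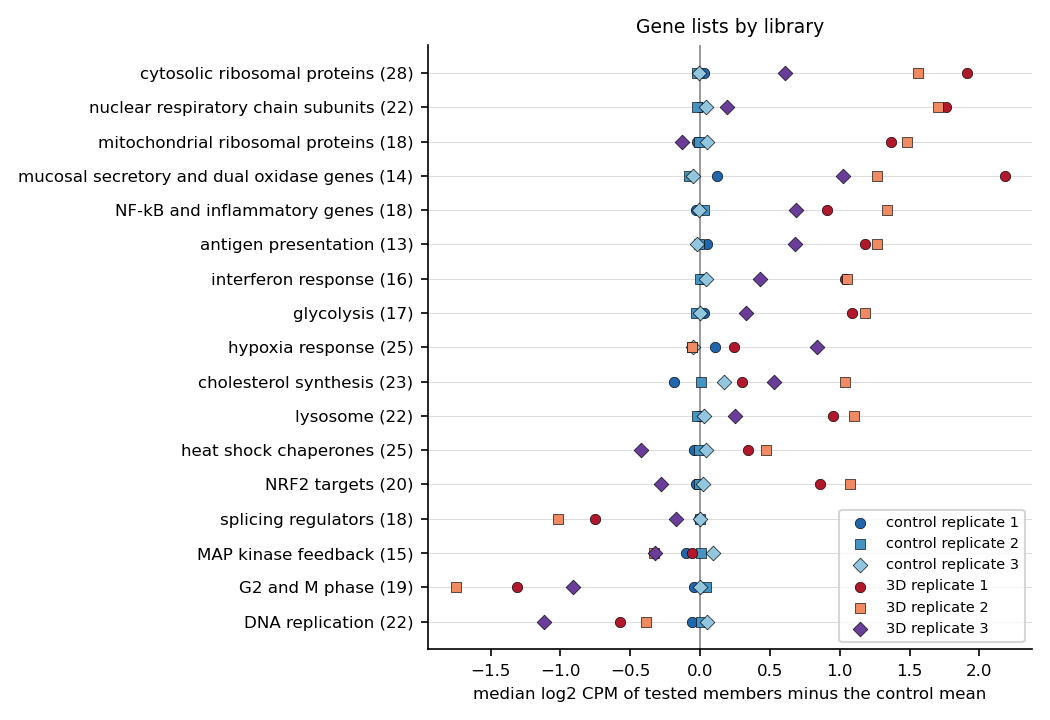
Median over the tested members of 17 gene lists (number in brackets) of log2 CPM minus the control mean (x), by library. The controls lie near 0, from -0.19 to 0.17, first-round replicate 3 ranges from -1.12 for DNA replication to 1.02 for mucosal genes, and in most lists replicates 1 and 2 lie farther from 0 than replicate 3.

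The 3 genes of the series title, SP1, IL4I1 and AHR, did not share a pattern: IL4I1 was above and AHR below the controls in all 3 libraries, and SP1 did not stand apart in replicate 3. IL4I1, a secreted oxidase of aromatic amino acids whose products activate AHR, was at 8.31, 17.6 and 5.08 CPM against 0.832, 0.830 and 1.02 CPM. Every first-round library was above every control, and the means were 10.3 ± 6.50 and 0.893 ± 0.108 CPM (SD, n = 3). Its log2 fold change was 3.52 (SE 0.54, 11.5-fold, adjusted p 0.113). It was 2.50 in replicate 3 and 3.87 in replicates 1 and 2, both called, and 2.48 with GC content and length taken into account (adjusted p 0.0246). IL4I1 overlaps the gene NUP62, and the library protocol names no step that keeps the strand, so reads of their shared sequence cannot be assigned with certainty. NUP62 itself was at 145, 204 and 85.1 CPM against 118, 120 and 133 CPM. It was above the controls in replicates 1 and 2 and below them in replicate 3.

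AHR, the aryl hydrocarbon receptor, was at 29.1, 17.7 and 65.0 CPM against 91.1, 91.9 and 78.4 CPM, below the controls in all 3 libraries. Its log2 fold change was -1.22 (SE 0.48, adjusted p 0.150), with -0.43 in replicate 3, -1.87 in replicates 1 and 2 and -0.20 with GC content and length taken into account (adjusted p 0.359). SP1, a transcription factor that binds GC-rich promoters, was at 113, 96.9 and 175 CPM against 174, 175 and 170 CPM. It was below the controls in replicates 1 and 2 and level with them in replicate 3 (log2 fold change 0.01), and the sign of its 6-library value, -0.43, turned to 0.14 with GC content and length taken into account.

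Of 10 tested AHR targets and partners 1 was called higher in both and 3 lower, and AHR itself is 1 of the 3. ALDH3A1, an aldehyde dehydrogenase, was at 5093, 5827 and 1745 CPM against 1231, 1292 and 1293 CPM, and TIPARP, a repressor of AHR and one of its targets, at 38.4, 17.7 and 88.8 CPM against 110 to 123 CPM. CYP1A1, the classical target, was at 24.3, 8.05 and 13.4 CPM against 13.6 to 16.1 CPM and did not stand apart. CYP1B1 was at 130, 30.4 and 371 CPM against 217 to 250 CPM, below the controls in replicates 1 and 2 and above in replicate 3. The list's median was -0.25, with -0.21 in replicate 3.

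Of 13 tested tryptophan and kynurenine enzymes, 4 were called higher in both and 1 lower. MAOA, monoamine oxidase A, which breaks down serotonin, was at 55.8, 55.9 and 57.2 CPM against 145, 137 and 139 CPM, with nearly equal first-round values (log2 fold change -1.32, SE 0.18, adjusted p 0.113). It was called lower with GC content and length taken into account (-1.07, adjusted p 0.0246). MAOB, its sister enzyme, was higher, at 158, 167 and 90.3 CPM against 73.0 to 78.2 CPM. QPRT, which feeds the pathway into NAD, was at 180, 382 and 157 CPM against 92.1 to 101 CPM. IDO1 and IDO2, the inducible enzymes that open the kynurenine pathway, had no reads in any of the 6 libraries, and TDO2, the hepatic one, was at 2.03, 1.76 and 5.02 CPM against 4.51 to 4.68 CPM.

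Genes set apart in replicates 1 and 2 but not in replicate 3 were read off in the same way. Replicates 1 and 2 were both above the controls with replicate 3 inside their range for 760 genes, and both below for 977. Median transcript GC content was 58.1% in the first set and 41.5% in the second, against 48.8% over all genes tested. Named by rule on the higher side were SLC27A5, a bile acid enzyme, at 28.5, 32.5 and 7.16 CPM against 6.29, 7.11 and 7.23 CPM, NTHL1, a DNA repair glycosylase, FHL3 and PAFAH1B3. On the lower side were LOX, which crosslinks collagen, at 2.51, 1.42 and 24.0 CPM against 28.3, 22.8 and 24.2 CPM, PPIP5K2, DNAJB14 and PUS7L. The transcripts of the 4 higher genes had 60.4% to 63.8% GC and those of the 4 lower ones 33.4% to 39.6%. With GC content and length taken into account none of the 8 had an adjusted p below 0.220. Genes in which all 3 first-round libraries were above the controls had a median GC content of 57.4% and those with all 3 below 43.2%.

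Replicate 3 also had genes of its own, with replicates 1 and 2 inside the range of the controls. CP, which encodes ceruloplasmin, the copper-carrying ferroxidase made by liver, was at 58.5, 45.4 and 311 CPM against 59.4, 40.2 and 27.1 CPM. In replicate 3 its log2 fold change was 2.88, and in replicates 1 and 2 it was 0.32. LIF, a cytokine, was at 16.0, 18.3 and 28.1 CPM against 15.7 to 19.8 CPM. SCIN, an actin-severing protein, was at 37.7, 37.1 and 48.6 CPM against 32.6 to 38.0 CPM. APOBEC3B, a cytidine deaminase, was at 9.25 CPM in replicate 3 and at 19.7 to 21.5 CPM in the controls, a range that held replicates 1 and 2. RPAIN, SLC25A33 and BAAT were the others named by rule. By CPM these are single-library differences.

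Of the marker lists of other cell types, all 7 red blood cell genes, 8 of 12 leukocyte genes, among them PTPRC and CD14, 10 of 13 fibroblast and pericyte genes, among them COL1A1 and PDGFRB, and 7 of 10 endothelial genes, among them VWF and CDH5, were under 1 CPM in every library. The summed leukocyte list was at 363 to 464 CPM in first-round 3D and 212 to 229 CPM in the controls, and most of it was CD68, a lysosomal protein that many cells make (415, 439 and 343 CPM against 199 to 216 CPM). The fibroblast list ran from 50.9 to 166 CPM against 139 to 142 CPM. Most of it was the proteoglycan LUM (up to 97.9 CPM, in replicate 3, against 55.4 to 56.8 CPM) and the collagen chain COL6A3 (37.9, 35.5 and 61.9 CPM against 68.8 to 71.2 CPM). DCN, decorin, was at 4.19, 1.56 and 3.50 CPM against 12.3, 12.2 and 12.1 CPM. The bile duct list ran from 135 to 182 CPM against 148 to 158 CPM, most of it SOX4, and the endothelial list from 65.4 to 116 CPM against 52.3 to 61.3 CPM, most of it ESAM. The hepatocyte and liver cancer list ran from 3063 to 9987 CPM against 3013 to 3260 CPM, and most of it was the keratins KRT8 (5756, 7674 and 2261 CPM against 2213 to 2422 CPM) and KRT18, which other epithelial cells make too. In this list GPC3, APOA2 and FGG were under 1 CPM in every library, and 1 of 18 tested was called higher in both and 1 lower.

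The remaining lists are given by their counts, to be read against the shares over all genes given above. Of 17 unfolded protein response genes 2 were called higher in both and 1 lower, of 20 proteasome genes none and 3, with 2 above and 7 below every control in all 3 libraries, of 9 canonical histones none in either direction, and of 15 p53 targets 4 and 2. GADD45A, a p53 target of growth arrest, was low in all 3, at 15.8, 17.3 and 20.5 CPM against 34.5 to 43.4 CPM. Of 18 genes of the ATF4 response 6 were called higher in both and 1 lower, and 9 were above and 1 below every control in all 3 libraries. Their median was 0.71, with 0.15 in replicate 3 and 0.08 with GC content and length taken into account. Of 17 immediate early genes 3 were higher and 2 lower, and JUNB was at 413, 586 and 285 CPM against 162 to 166 CPM. Of 12 genes of iron handling 2 were called higher in both and 3 lower, of 11 of fatty acid synthesis 2 and 1, and of 12 of fatty acid oxidation 3 and 1. Of 12 genes of mesenchymal transition tested in both, 4 were called higher and none lower, and of 6 genes of metallothioneins and zinc none and 1.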

How the data were processed

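Per the labels' protocols, the kit used was RNeasy, cDNA was primed at random on fragments of mRNA, and a BGISEQ-500 made single-end reads of 50 bases. The submitters' processing notes name HISAT2 and hg19. The counting program, annotation and strand setting are not given in the sources used here. The deposited table holds whole-number read counts, not normalized, for 19143 gene symbols. In 27 rows the symbol had become a calendar date (0.185% of counts), and these are not named. The counts are without molecular identifiers, and the standard errors and p-values cover the spread between these libraries only.

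All fits used edgeR 4.0.16 in R 4.3.3 (filterByExpr by group, TMM scaling, robust quasi-likelihood fit, Benjamini-Hochberg adjusted p below 0.05). CPM was computed from the deposited counts with TMM factors over the 6 libraries, and log2 CPM with a prior count of 2. The split fits added the 2D libraries. The GC and length offset used splines with 5 degrees of freedom for the longest coding transcript per gene of GENCODE 29, found by symbol for 98.9% of rows. A simulation with 200 changed genes was run through each fit. It drew all libraries around the control means with a fixed small spread and no trend in GC content or length. It therefore cannot show how the fits handle first-round replicates that differ as these do. Promoters came from RefSeq.

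The comparison and the 45 lists (38 of pathways, 7 of markers) were chosen with earlier results of these data known. Of 746 list entries 743 matched a row, and KIF23, PER1 and LINC00673 are not analysed here. The naming rule took 8 genes per direction that were called in the 6-library and both split fits, did not overlap the controls and had a mean of at least 10 CPM. It was to add 4 per direction called only in replicates 1 and 2 or only in replicate 3, up to 4 members per list by p, and the title genes. Since the 6-library fit called none, that requirement was dropped after the values were seen. Some genes that the rule names are not reported here. Other list members were named after their values were seen. Samples were treated as unpaired. Deviations from the group means correlated at -0.168, -0.164 and -0.384 between samples of the same replicate number. First-round deviations carry the split of replicates 1 and 2 from replicate 3, so this check cannot decide whether samples were paired. Alternatives were DESeq2 1.42.0, upper-quartile and median-ratio scaling, a filter of 10 reads and none, replicate block, all libraries, no 2D libraries, a fold threshold of 2, leaving out libraries and, chosen after seeing the data, a fit of 12 libraries.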

Additional observations from a re-analysis of the deposited data

How the results depend on the processing

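The 6-library counts of 0 higher and 0 lower genes held with upper-quartile and median-ratio scaling, a stricter filter and none, and the replicate block. DESeq2 gave 1887 higher and 659 lower, all 15 libraries in the fit 164 and 172, the GC and length offset 115 and 140, and the fit without 3D replicates 1 and 2 together 3027 and 3310. Leaving out single libraries gave 0 to 4656 higher and 0 to 4862 lower, and only the fit without 3D replicate 3 was above 0. For replicate 3 alone all libraries gave 0 and 0, 12 libraries 631 and 943, and a 2-fold threshold 540 and 341. For replicates 1 and 2 the offset gave 3143 higher, and a 2-fold threshold 2963 higher. Called in both were 0 and 0 genes with all libraries and 194 and 141 at 2-fold. The replicate block gave 1460 higher and 1473 lower genes in both, and changed no other count by over 1.5 times. Upper-quartile scaling moved the median log2 fold change of all genes from -0.01 to -0.13.

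Signs of log2 fold changes turned with the offset for LIF (-0.09), CEBPD (-0.18), SP1 (0.14), RPAIN (-0.29), SLC25A33 (0.20) and BAAT (0.71), and without 3D replicates 1 and 2 for FHL3 (-0.11) and PPIP5K2 (0.02). Leaving out single libraries gave LIF -0.04 to 0.37, APOBEC3B -0.48 to 0.05, RPAIN -0.02 to 0.31, SLC25A33 -0.34 to 0.08 and BAAT -0.30 to 0.02. Of 43 list medians 21 turned sign under at least 1 alternative. The cause was not tested. Genes under 1 CPM rest on few reads and their differences are not detectable at this depth.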
